A study of Mus musculus with 10 samples.

Results

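The genes described are 106 splicing factors and neuronal RNA-binding proteins, out of 13840 mouse genes that the array annotation names through a probe with a single symbol. They were chosen by symbol and not by a measured difference, though with earlier results of these data known. The symbols were those of the families Srsf, Hnrnp, Snrp, Sf3, Prpf, Pcbp, Ptbp, Elavl, Nova, Celf, Rbfox, Mbnl, Khdrbs and Igf2bp, and of numbered Msi and Rbm genes. The single genes Qk, U2af1, U2af2, Fmr1, Fxr1, Fxr2 and Lin28a were added. Of 112 such probes, 106 were kept, the one with the highest mean for each gene. Each gene was measured on 10 single-channel Applied Biosystems arrays, which read digoxigenin-labelled cRNA by chemiluminescence. Of these, 5 arrays carried RNA pooled from the retinas of 350 adult C57/B6 mice. The other 5 carried RNA pooled from the cortex of 19 mice at postnatal day 1 (P1), a strain given as C57/B6 in the sample descriptions and as Swiss-Webster in the series text. Titles of the retina arrays include P1 as well, without an explanation. The 5 arrays of a tissue repeat 1 pool, so every test below measures the spread between arrays and not between animals. Tissue cannot be told apart from age, or from strain if the cortex mice were Swiss-Webster. Both pools are whole tissue, in which fewer cells of a type and less RNA per cell cannot be told apart.

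Introns are removed from pre-mRNA by the spliceosome, a machine built from small nuclear ribonucleoproteins (snRNPs). Each is an RNA with its own protein partners, and most carry a ring of Sm proteins. SR proteins, which carry arginine-serine repeats, mostly favour use of a nearby exon, and heterogeneous nuclear ribonucleoproteins (hnRNPs) often oppose it. Further regulators come from the ELAVL, NOVA, RBFOX, CELF, MBNL and PTBP families, some of them tissue-restricted, and their balance sets exon choice as neurons mature. FMRP and the IGF2BP proteins carry and silence mRNAs outside the nucleus. Intensities here are gene-level signals and do not show which isoform was made.

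Marker genes followed the labels. All 5 rod photoreceptor and all 4 cone photoreceptor markers measured were higher in retina, with differences of 7.47 to 11.57, and all 4 cortical projection neuron and all 4 cortical interneuron markers were lower, from -2.91 to -8.18. Values are log2 intensities after quantile normalization, which gives the arrays 1 shared distribution, and each difference is retina minus cortex. A gene was called when limma's adjusted p over all 33012 probes was under 0.05 and the tissues differed 2-fold or more (1 on the log2 scale). Since no detection call was used, the 747 olfactory receptor probes served as a yardstick for dim signal, and a gene is called dim below their 95th percentile, 10.77 in retina and 10.65 in cortex. Of the 106 genes, 5 were dim in both tissues (Lin28a, Mbnl3, Rbm3, Rbm11 and Rbm45) and 5 in the dimmer tissue only (Igf2bp1, Igf2bp3, Ptbp3, Rbm38 and Msi1).

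Most of these genes differed between the tissues by less than 2-fold, and calls were most frequent among the regulators and the genes of mRNA transport. Of the 106 genes, 10 were called higher and 20 lower in retina, which is 28.3%, against 25.4% of all probes, 29.0% of all named genes and 38.4% of the named genes that were not dim in both tissues. Leaving out the 5 genes dim in both tissues, 28 of 101 were called (27.7%), a smaller share than the 38.4% of named genes under the same condition. By direction, 12.1% of all probes were higher and 13.3% lower. Without normalization the split was 8 higher and 28 lower, and for all probes 2474 and 7621 in place of 3987 and 4392. That scaling moved the median of all probes to -0.41. Centring each array on its median put it at 0.13 and gave 10 higher and 18 lower. Past the adjusted p alone, with no minimum size, were 83 of the 106 genes (78.3%), against 47.6% of all probes, 57.8% of named genes and 82.3% of named genes not dim in both tissues. The 5 values of one tissue lay wholly above the 5 of the other in 71 genes (67.0%), against 40.5% of probes, 50.3% of named genes and 75% of named genes not dim in both tissues. Among these 71 were 42 genes that were not called. The median difference was -0.18, against -0.0052 over all probes. The median absolute difference was 0.50, against 0.56 over named genes and 0.716 over named genes not dim in both tissues.

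**Figure D1:**
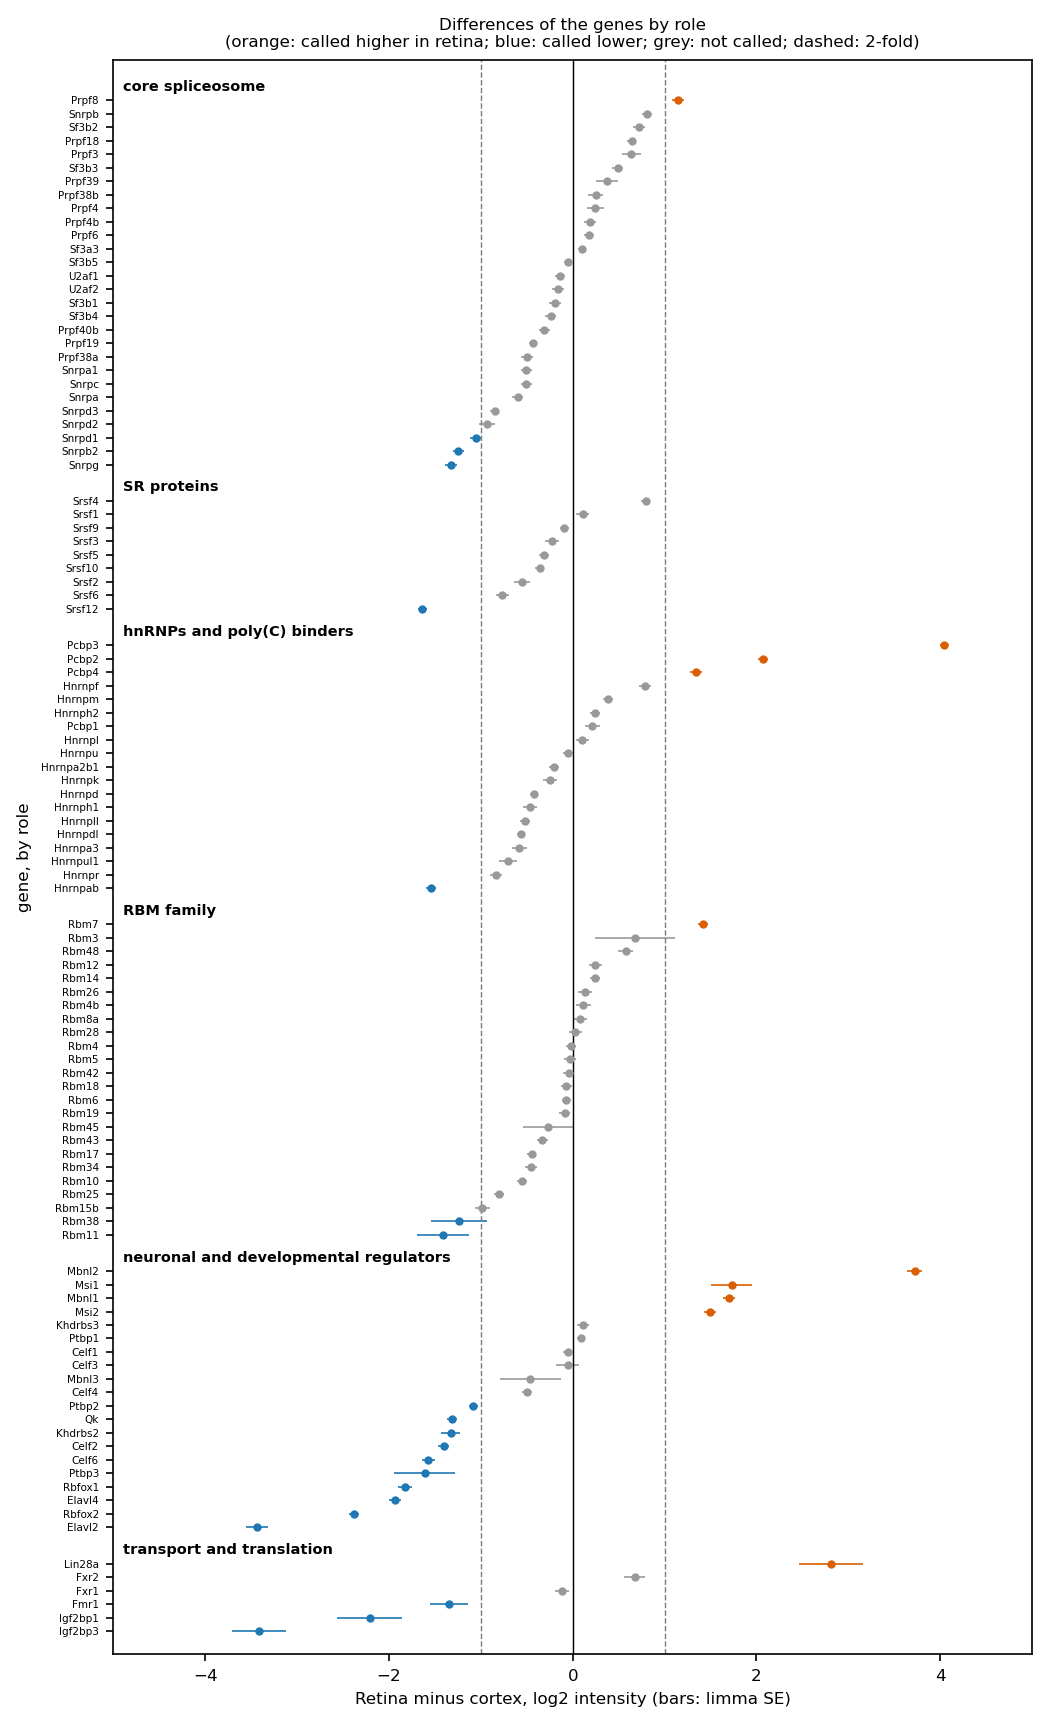
Difference of each of the 106 genes (retina minus cortex, log2 intensity, horizontal axis; bars are limma standard errors) listed by role, with orange for genes called higher in retina, blue for lower and grey for not called; dashed lines mark 2-fold. Of the 26 genes in the last 2 blocks 18 are coloured, against 12 of the 80 genes above them.

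The called share differed by role. Among the 20 neuronal and developmental regulators 4 were higher, 10 lower and 6 not called (70.0% called, median absolute difference 1.45), and among the 6 genes of mRNA transport and translation 1 was higher, 3 lower and 2 not called (66.7%). The 28 core spliceosome genes had 1 higher, 3 lower and 24 not called (14.3%), the 9 SR protein genes had 1 lower and 8 not called (11.1%), the 19 hnRNP and poly(C)-binding genes had 3 higher, 1 lower and 15 not called (21.1%), and the 24 RBM genes had 1 higher, 2 lower and 21 not called (12.5%). Without normalization the counts were 0 higher and 5 lower in the core spliceosome, 0 and 2 among SR genes, 2 and 4 among hnRNP and poly(C)-binding genes, and 1 and 4 among RBM genes, so the hnRNP and poly(C) group leaned the other way. The regulators stayed at 4 and 10 and the transport genes at 1 and 3. These shares stand beside the 29.0% of named genes and the 38.4% of named genes not dim in both tissues given above. No gene of the core spliceosome, SR or hnRNP and poly(C)-binding groups was dim in both tissues. No test was made between role groups.

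Promoter sequences are shown for 6 called genes, as the stretches that end where transcription of these genes begins. They are the 2 largest differences in each direction, and the largest in each direction among core spliceosome genes, of those with 1 listed start and not dim in both tissues. Each is the 250 bases before the start in RefSeq's GRCm38.p6 annotation, written 5′ to 3′ on the gene's strand, with capitals for matches on either strand to 6 strings. These were CCAAT (the CCAAT box), the GC box string GGGCGG, the ETS core string TTCCGG, the E-box string CACGTG, the photoreceptor homeobox core string TAATCC and the TATA box string TATAAA. Mbnl2 (difference 3.72) is at chr14:120275419-120275668, plus strand, and Rbm7 (1.42) is at chr9:48495331-48495580, minus strand. Igf2bp3 (-3.42) is at chr6:49214955-49215204, minus strand, and Srsf12 (-1.64) is at chr4:33209022-33209271, plus strand. Prpf8 (1.15) is at chr11:75486527-75486776, plus strand, and Snrpg (-1.33) is at chr6:86371290-86371539, plus strand.
Mbnl2: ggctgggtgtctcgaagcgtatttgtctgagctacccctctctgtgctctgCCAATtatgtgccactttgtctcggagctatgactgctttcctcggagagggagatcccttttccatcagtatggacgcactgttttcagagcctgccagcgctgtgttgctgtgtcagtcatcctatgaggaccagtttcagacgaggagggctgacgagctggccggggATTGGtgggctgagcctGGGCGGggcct
Rbm7: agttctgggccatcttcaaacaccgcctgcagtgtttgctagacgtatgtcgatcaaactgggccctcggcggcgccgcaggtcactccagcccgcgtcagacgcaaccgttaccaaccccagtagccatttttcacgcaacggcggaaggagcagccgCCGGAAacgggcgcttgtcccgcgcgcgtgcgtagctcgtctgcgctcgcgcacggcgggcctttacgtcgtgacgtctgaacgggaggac
Igf2bp3: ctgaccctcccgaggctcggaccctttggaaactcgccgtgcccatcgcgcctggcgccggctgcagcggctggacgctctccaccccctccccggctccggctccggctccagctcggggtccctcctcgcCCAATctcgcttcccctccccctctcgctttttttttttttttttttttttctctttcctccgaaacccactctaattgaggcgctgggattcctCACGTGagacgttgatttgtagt
Srsf12: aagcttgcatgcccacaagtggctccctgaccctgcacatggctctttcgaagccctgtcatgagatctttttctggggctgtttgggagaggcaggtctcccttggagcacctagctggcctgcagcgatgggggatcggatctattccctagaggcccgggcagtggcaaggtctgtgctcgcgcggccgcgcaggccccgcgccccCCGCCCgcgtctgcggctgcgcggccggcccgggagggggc
Prpf8: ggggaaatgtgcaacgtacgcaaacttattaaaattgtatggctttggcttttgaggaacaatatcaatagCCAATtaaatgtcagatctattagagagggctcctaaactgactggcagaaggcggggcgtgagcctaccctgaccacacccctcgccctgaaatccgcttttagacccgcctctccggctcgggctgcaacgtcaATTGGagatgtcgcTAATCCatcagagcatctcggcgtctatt
Snrpg: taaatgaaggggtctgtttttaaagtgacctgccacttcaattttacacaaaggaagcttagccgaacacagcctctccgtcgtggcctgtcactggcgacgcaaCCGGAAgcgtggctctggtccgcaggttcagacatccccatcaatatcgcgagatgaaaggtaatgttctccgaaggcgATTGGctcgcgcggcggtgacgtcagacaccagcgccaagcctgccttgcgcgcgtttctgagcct

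The Mbnl2 stretch held CCAAT in both orientations, first bases 199 and 28 before the start, and a GC box at 11. Igf2bp3 held CCAAT at 118 and CACGTG at 23, and Prpf8 was the single one of the 6 with TAATCC, at 29. Rbm7 and Snrpg, which moved in opposite directions, both held TTCCGG, at 91 and 145. RefSeq's table listed 133 promoters for 89 of the 106 genes. GGGCGG was in 57.1% of these, against 32.7% of all 32851 promoters of the same length, TTCCGG in 27.8% against 12%, CCAAT in 47.4% against 33.8% and CACGTG in 15.0% against 6.02%. TAATCC was in 4.51% against 6.25% and TATAAA in 9.77% against 12.4%. The median promoter of these genes held 19 CG dinucleotides at 60.4% GC, against 6 at 52.4% over all promoters, and the GC-rich motifs share that base composition. Among promoters of the genes called higher, 1 of 11 held TAATCC, and among those called lower, 1 of 31. A match is a string of letters and does not show binding.

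Elavl2 and Elavl4, the Elavl genes measured, encode neuronal Hu proteins, which bind AU-rich stretches and steady the mRNAs of differentiating neurons. Both genes were lower in retina, and no Nova gene was among the 106. Elavl2 read 10.78, 10.96, 11.07, 10.31 and 10.89 on the 5 retina arrays and 14.14, 14.28, 14.28, 14.22 and 14.28 on the 5 cortex arrays. Every retina value was below every cortex value, with a gap of 3.07 between the nearest arrays, and the mean difference was -3.44 (SE 0.115, 10.8-fold, limma, Benjamini-Hochberg adjusted p = 1.03e-13). The retina mean of Elavl2, 10.80, lay near the dim cutoff of 10.77, with retina array 4 below it. Elavl4 read 15.38, 15.23, 15.64, 15.34 and 15.47 on the 5 retina arrays and 17.26, 17.36, 17.32, 17.47 and 17.33 on the 5 cortex arrays. The retina arrays were again all below the cortex arrays, and the mean difference was -1.94 (SE 0.067, 3.83-fold, limma, Benjamini-Hochberg adjusted p = 1.54e-13).

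The Rbfox proteins bind GCAUG in introns and act on exons of neurons and muscle. Rbfox1 read 15.88, 15.69, 15.66, 16.09 and 15.97 on the 5 retina arrays and 17.56, 17.70, 17.66, 17.69 and 17.82 on the 5 cortex arrays. Retina was lower without overlap, with a difference of -1.83 (SE 0.075, 3.55-fold, limma, Benjamini-Hochberg adjusted p = 1.61e-12). Rbfox2 measured 14.37, 14.22, 14.06, 14.11 and 14.11 on the 5 retina arrays and 16.61, 16.61, 16.55, 16.53 and 16.47 on the 5 cortex arrays. Here too no array of one tissue reached the other, and the difference was -2.38 (SE 0.058, 5.21-fold, limma, Benjamini-Hochberg adjusted p = 1.67e-15). Set against Rbfox1 within each array, Rbfox2 was lower in retina by a further 0.55 on the log2 scale (1.47-fold, exact 2-sided permutation p = 0.00794, adjusted p = 0.0102).

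The Celf proteins bind GU-rich sequence and oppose MBNL proteins at a number of exons. Of 5 measured, Celf2 and Celf6 were lower in retina and Celf1, Celf3 and Celf4 were not called. Celf2 read 17.57, 17.46, 17.31, 17.48 and 17.45 on the 5 retina arrays and 19.00, 18.80, 18.91, 18.81 and 18.78 on the 5 cortex arrays. The groups lay apart, with a difference of -1.41 (SE 0.06, 2.65-fold, limma, Benjamini-Hochberg adjusted p = 2.68e-12). Celf6 read 13.35, 13.39, 13.62, 13.27 and 13.31 on the 5 retina arrays and 14.90, 14.90, 14.84, 15.10 and 15.07 on the 5 cortex arrays. Its difference of -1.57 (SE 0.071, 2.98-fold, limma, Benjamini-Hochberg adjusted p = 5.52e-12) was likewise free of overlap. Celf4 was lower by under 2-fold (-0.50, SE 0.059), with no overlap between tissues. The broadly expressed Celf1 was at 13.24 ± 0.11 (SD, n = 5) for retina against 13.29 ± 0.027 (SD, n = 5) for cortex, and Celf3 at 11.28 ± 0.19 (SD, n = 5) for retina against 11.33 ± 0.085 (SD, n = 5) for cortex, both with overlapping arrays.

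Muscleblind (Mbnl) proteins bind short GC-containing motifs and drive the adult pattern of many exons. Mbnl1 and Mbnl2 were higher in retina. Mbnl2 read 15.00, 14.92, 14.82, 14.94 and 14.81 on the 5 retina arrays and 11.13, 10.93, 11.35, 11.16 and 11.32 on the 5 cortex arrays. The retina arrays were all above the cortex arrays, and the mean difference was 3.72 (SE 0.081, 13.2-fold, limma, Benjamini-Hochberg adjusted p = 3.96e-16), the largest difference among the regulators. Mbnl1 read 14.86, 14.96, 15.02, 14.91 and 15.14 on the 5 retina arrays and 13.22, 13.19, 13.20, 13.32 and 13.45 on the 5 cortex arrays. It was higher in retina without overlap, by 1.70 (SE 0.066, 3.25-fold, limma, Benjamini-Hochberg adjusted p = 6.94e-13). Mbnl3 was dim in both tissues and was not called (-0.46, SE 0.328). Within arrays, Mbnl2 rose over Mbnl1 by 2.02 in retina (4.06-fold, exact permutation p = 0.00794, adjusted p = 0.0102).

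Polypyrimidine tract-binding proteins repress exons, and neurons replace Ptbp1 with Ptbp2 early in differentiation, lowering the latter as they mature. Ptbp1 read 14.83, 14.85, 14.89, 14.80 and 14.87 on the 5 retina arrays and 14.73, 14.70, 14.81, 14.80 and 14.76 on the 5 cortex arrays. Ptbp1 was not called (0.09, SE 0.044, limma adjusted p = 0.112) and its arrays overlapped by a small margin. Ptbp2 read 15.24, 15.32, 15.35, 15.21 and 15.17 on the 5 retina arrays and 16.38, 16.41, 16.33, 16.24 and 16.35 on the 5 cortex arrays. Ptbp2 was lower in retina without overlap, with a difference of -1.08 (SE 0.049, 2.12-fold, limma, Benjamini-Hochberg adjusted p = 5.74e-12), although with median centring its difference of -0.93 was under 2-fold. Relative to Ptbp1 in the same array, Ptbp2 was lower in retina, with a difference of -1.17 (2.26-fold, exact permutation p = 0.00794, adjusted p = 0.0102). Ptbp3 was lower too (-1.61, SE 0.332, limma adjusted p = 0.000556), from retina values in the dim range. Its cortex mean, 10.695, lay near the cutoff of 10.65, with cortex arrays 2, 4 and 5 below it.

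The STAR-domain genes split. Khdrbs2 and Khdrbs3 encode SLM1 and SLM2, which act on neurexin exons, and Qk encodes quaking, best known from glia. Qk read 13.37, 13.52, 13.37, 13.33 and 13.43 on the 5 retina arrays and 14.75, 14.79, 14.73, 14.59 and 14.74 on the 5 cortex arrays. The tissues lay apart and Qk was lower in retina, with a difference of -1.32 (SE 0.055, 2.49-fold, limma, Benjamini-Hochberg adjusted p = 1.78e-12). Khdrbs2 was lower as well, at 11.69 ± 0.24 (SD, n = 5) for retina against 13.01 ± 0.072 (SD, n = 5) for cortex, a difference of -1.33 (SE 0.104, 2.51-fold, limma, Benjamini-Hochberg adjusted p = 8.42e-09). Khdrbs3 was at 16.76 ± 0.10 (SD, n = 5) for retina against 16.65 ± 0.14 (SD, n = 5) for cortex, was not called, and its arrays overlapped.

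Musashi proteins hold back translation of their targets in neural stem cells, and in photoreceptors they act in splicing. Both were higher in retina. Msi2 read 13.88, 13.96, 14.02, 13.93 and 13.82 on the 5 retina arrays and 12.34, 12.38, 12.38, 12.49 and 12.55 on the 5 cortex arrays. The retina arrays all lay above the cortex arrays, and the mean difference was 1.50 (SE 0.065, 2.82-fold, limma, Benjamini-Hochberg adjusted p = 3.33e-12). Msi1 read 11.91, 11.97, 12.12, 12.08 and 12.07 on the 5 retina arrays and 9.58, 10.62, 10.22, 11.09 and 9.99 on the 5 cortex arrays. Its cortex arrays, in the dim range by their mean, had an SD of 0.58, and the difference was 1.73 (SE 0.22, 3.31-fold, limma, Benjamini-Hochberg adjusted p = 3.49e-06) with no overlap. No difference between the pair was detected, with Msi2 against Msi1 at -0.23 (exact permutation p = 0.365, adjusted p = 0.387).

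**Figure D2:**
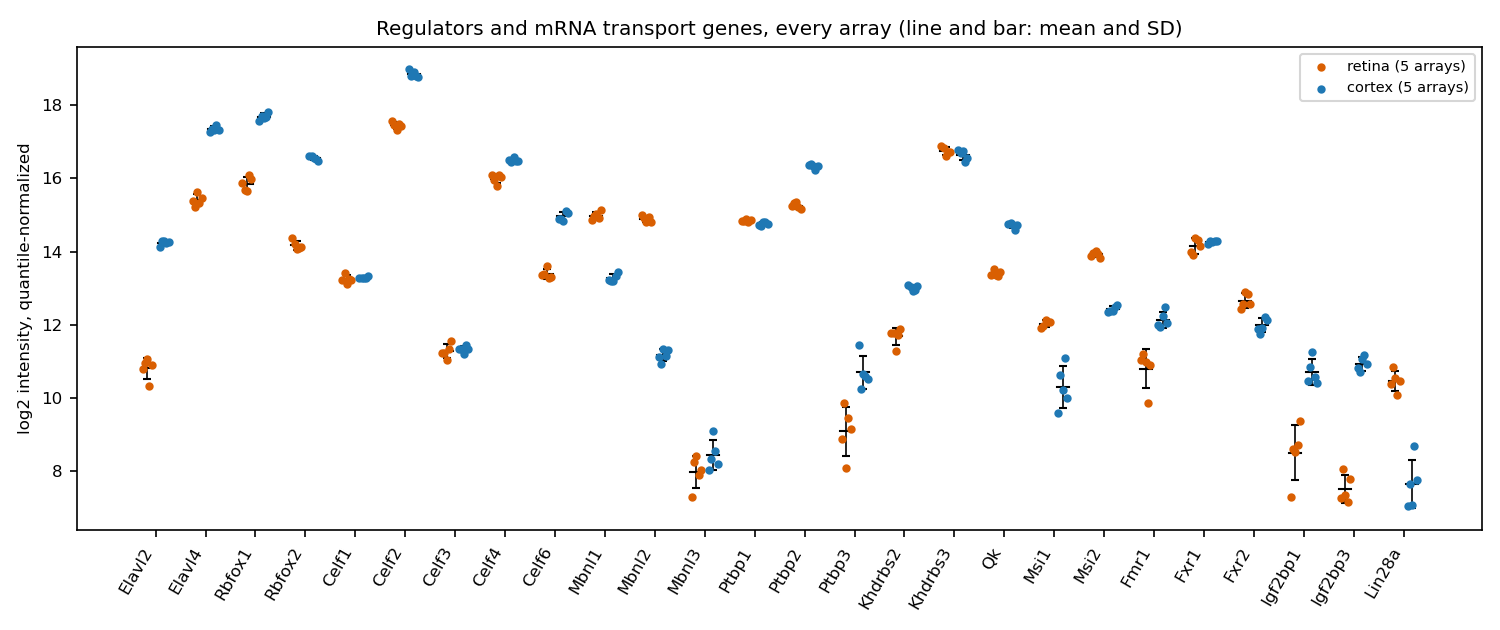
Quantile-normalized log2 intensity (vertical axis) of the 26 regulator and mRNA transport genes on every array, with orange points for retina, blue for cortex, and a black line and bar for the mean and SD of 5 arrays. Mbnl1, Mbnl2, Msi1, Msi2 and Lin28a were called higher in retina, Lin28a from means dim in both tissues, and Fxr2 sits higher by under 2-fold. Elavl2 and Igf2bp3 show the widest gaps in the other direction.

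General neuron and immature neuron markers moved with the regulators that were lower. Of 7 general neuron markers 4 were lower, 1 (Syt1) higher and 2 not called. Of those 2, Snap25 was dim in both tissues, so its lack of a call says nothing of its level. The 7 markers summed to an intensity of 469892 to 510534 over the retina arrays and 2855049 to 3021395 over the cortex arrays. Most of the cortex sum came from Stmn2 and Tubb3 (cortex log2 means 20.34 and 19.97). All 4 immature neuron markers were lower (176293 to 195631 against 2351046 to 2602946), as were all 4 of cortical projection neurons (9754 to 12760 against 495090 to 518925) and all 4 of cortical interneurons (11427 to 13356 against 213832 to 238582). Markers of rods (4925356 to 5526809 against 3128 to 4924) and cones (518208 to 565677 against 948 to 1743) moved with the regulators that were higher, as did those of bipolar cells (340114 to 376881 against 20384 to 23101), amacrine cells (134735 to 171230 against 9542 to 11882) and ganglion cells (65691 to 71843 against 3680 to 5656). Of the 4 Müller glia markers 3 were higher (sum of the 4, 1586973 to 1727653 against 277011 to 307769). The other, Slc1a3, was not called (-0.84, SE 0.0665), with every retina array below every cortex array. Most of both sums came from Glul (log2 means 20.27 in retina and 17.82 in cortex). Other lists moved too: 1 of 1 astrocyte, 2 of 4 oligodendrocyte, 1 of 2 microglia, 5 of 5 meninges and 2 of 2 erythroid markers were lower, and of 4 endothelial markers 1 was higher and 2 lower. No marker was at 0, and the part of cell makeup in any result here was not tested.

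Outside the nucleus, the IGF2BP proteins bind and protect mRNAs in fetal tissue and growing axons. Igf2bp3 read 7.26, 8.04, 7.33, 7.16 and 7.79 on the 5 retina arrays and 10.82, 10.70, 11.05, 11.17 and 10.93 on the 5 cortex arrays. All retina values were dim and below all cortex values, with a mean difference of -3.42 (SE 0.289, 10.7-fold, limma, Benjamini-Hochberg adjusted p = 2.15e-08). Igf2bp1 read 7.28, 8.61, 8.52, 8.72 and 9.38 on the 5 retina arrays and 10.46, 10.85, 11.26, 10.58 and 10.42 on the 5 cortex arrays. It was lower as well, with a difference of -2.21 (SE 0.353, 4.63-fold, limma, Benjamini-Hochberg adjusted p = 4.4e-05), again from dim retina values. Because the retina side was dim, the sizes of these differences were not shown to lie above background on that side. Igf2bp1 also lay near the cutoff of 10.65 in cortex (mean 10.71), with cortex arrays 1, 4 and 5 below it. Within arrays the ratio of Igf2bp3 to Igf2bp1 was lower in retina, at a difference of -1.21 (exact permutation p = 0.0238, adjusted p = 0.0286), with overlap between tissues, and the call was lost without cortex array 1, 4 or 5 or retina array 2, 3, 4 or 5, each alone (adjusted p up to 0.0571 by exact permutation).

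Fmr1 encodes FMRP, the protein lost in fragile X syndrome, which represses translation at synapses, and Fxr1 and Fxr2 are its paralogs. Fmr1 read 11.04, 11.19, 10.97, 9.85 and 10.91 on the 5 retina arrays and 11.99, 11.94, 12.24, 12.48 and 12.05 on the 5 cortex arrays. Retina array 4 stood below the other retina arrays, and no retina array reached the cortex range. Fmr1 was lower, with a difference of -1.35 (SE 0.21, 2.54-fold, limma, Benjamini-Hochberg adjusted p = 3.46e-05). Its retina mean, 10.79, lay near the dim cutoff of 10.77, with retina array 4 below it. Fxr1 was at 14.15 ± 0.21 (SD, n = 5) for retina against 14.27 ± 0.041 (SD, n = 5) for cortex with overlapping arrays and was not called, and Fxr2 was higher by under 2-fold (0.68, SE 0.112) without overlap. Against Fmr1 in the same array, Fxr2 was higher in retina by 2.02 and Fxr1 by 1.23 (exact permutation p = 0.00794 and adjusted p = 0.0102 for each).

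Lin28a encodes a protein of early embryonic cells that blocks let-7 maturation. Lin28a read 10.37, 10.84, 10.54, 10.07 and 10.45 on the 5 retina arrays and 7.05, 7.64, 7.08, 8.68 and 7.76 on the 5 cortex arrays. It was called higher in retina (2.81, SE 0.35, limma adjusted p = 2.61e-06) and its arrays did not overlap, yet both means lay in the dim range, with 1 retina array (10.84) above it, so neither level was shown to exceed background.

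In the core spliceosome, 8 of 9 genes of snRNP proteins had lower values in retina, and 10 of 11 PRPF genes were not called. All 9 Snrp genes passed the adjusted p, 8 of them with a lower value in retina, and all 9 had no overlap between tissues, beside 82.3% and 75% of the named genes not dim in both tissues. Of the 8614 named genes not dim in both tissues, 3584 passed the adjusted p with a lower value in retina. At 2-fold 3 of the 9 Snrp genes were called, against 5 without normalization and 2 with median centring. That share, 33.3%, lay between the 29.0% of named genes and the 38.4% of those not dim in both tissues. Under all 4 scalings tried, 8 of the 9 were negative and 1 positive. Snrpg read 16.18, 16.34, 16.53, 16.32 and 16.43 on the 5 retina arrays and 17.54, 17.70, 17.58, 17.83 and 17.77 on the 5 cortex arrays. Snrpg, an Sm ring protein, was lower, with a difference of -1.33 (SE 0.069, 2.51-fold, limma, Benjamini-Hochberg adjusted p = 3.8e-11). Snrpb2, which encodes the U2 snRNP protein B″, was at 14.72 ± 0.12 (SD, n = 5) for retina against 15.97 ± 0.064 (SD, n = 5) for cortex and lower, with a difference of -1.25 (SE 0.057, 2.37-fold, limma, Benjamini-Hochberg adjusted p = 6.29e-12). Snrpd1, also of the Sm ring, was lower, with a difference of -1.06 (SE 0.066, 2.08-fold, limma, Benjamini-Hochberg adjusted p = 3.69e-10), and with median centring its difference was -0.89. Short of the 2-fold line and not called were Snrpd2 (-0.93, SE 0.092) and Snrpd3 (-0.85, SE 0.049), both called without normalization (-1.39 and -1.23), while Snrpa, Snrpa1 and Snrpc, of the U1 and U2 particles, were at -0.60, -0.50 and -0.50.

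The exception was Snrpb, which encodes the SmB/B′ ring protein. Snrpb read 18.18, 18.30, 18.06, 18.09 and 18.17 on the 5 retina arrays and 17.38, 17.42, 17.32, 17.31 and 17.33 on the 5 cortex arrays. Every retina value exceeded every cortex value, and the mean difference was 0.81 (SE 0.053, 1.75-fold, limma adjusted p = 8.14e-10), short of 2-fold. Of the 5 Sm ring genes measured, then, Snrpd1, Snrpd2, Snrpd3 and Snrpg had lower values in retina and Snrpb a higher one. Of 6 markers of dividing cells Birc5 (19.1-fold), Rrm2 (55.1-fold) and Top2a (16.5-fold) were lower in retina, from dim retina values. Cdk1 and Mcm2 were dim in both tissues, so their lack of a call says nothing of their levels, and Pcna was not called (-0.23, SE 0.063). Summed over the 6, intensity ran from 70460 to 84592 on retina arrays and from 111740 to 127842 on cortex arrays, most of it from Pcna, and their part in these results was not tested.

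Prpf8, the U5 protein at the catalytic centre of the spliceosome, was the single core gene called higher. Prpf8 read 17.33, 17.26, 17.16, 17.18 and 17.15 on the 5 retina arrays and 16.20, 16.14, 16.07, 15.86 and 16.07 on the 5 cortex arrays. It differed by 1.15 (SE 0.061, 2.21-fold, limma, Benjamini-Hochberg adjusted p = 5.29e-11), with no overlap, and stood at 0.75 without normalization. All 11 Prpf genes passed the adjusted p, beside the same 82.3%, 8 with higher values in retina and 3 with lower, but the balance rested on the scaling: without normalization 3 were positive and 8 negative. Prpf18 and Prpf3 followed Prpf8 at 0.64 and 0.64, and Prpf38a had the lowest value at -0.50. None of the 6 Sf3 genes of the branch-site complex was called by limma, where 5 had an unadjusted p under 0.05 and the same number passed the adjusted p alone, and they ran from -0.24 (Sf3b4) to 0.73 (Sf3b2). The U2AF subunits, which read the polypyrimidine tract and AG of the acceptor site, were at -0.14 (U2af1) and -0.16 (U2af2).

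Of the 9 SR genes 1 was called. Srsf12 read 13.36, 13.40, 13.45, 13.33 and 13.40 on the 5 retina arrays and 15.07, 14.93, 14.98, 15.10 and 15.03 on the 5 cortex arrays. Srsf12, which encodes an SR protein akin to Srsf10, was lower in retina without overlap, with a difference of -1.64 (SE 0.05, 3.11-fold, limma, Benjamini-Hochberg adjusted p = 2.96e-14). The next lowest was Srsf6 (-0.77, SE 0.069), and Srsf4 had the highest value (0.79, SE 0.053). Both were free of overlap and short of 2-fold, and Srsf6 passed 2-fold without normalization (-1.15). The classical Srsf1 was at 14.96 ± 0.16 (SD, n = 5) for retina against 14.86 ± 0.094 (SD, n = 5) for cortex and was not called. Relative to it, Srsf6 was lower in retina, with a difference of -0.88 (exact permutation p = 0.00794, adjusted p = 0.0102). A second probe for Srsf3 read -0.96 (SE 0.099) where the kept probe read -0.23 (SE 0.078), neither called.

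Poly(C)-binding proteins, KH-domain proteins that steady mRNAs and act in splicing, rose together in retina except for Pcbp1. Pcbp3 read 17.70, 17.59, 17.50, 17.50 and 17.56 on the 5 retina arrays and 13.61, 13.52, 13.53, 13.51 and 13.47 on the 5 cortex arrays. The gap between the nearest retina and cortex arrays was 3.89, and the difference of 4.04 (SE 0.049, 16.5-fold, limma, Benjamini-Hochberg adjusted p = 4.79e-19) was the largest of all 106 genes. Pcbp2 read 19.98, 19.96, 19.85, 19.93 and 19.90 on the 5 retina arrays and 17.90, 17.89, 17.92, 17.73 and 17.86 on the 5 cortex arrays. Pcbp2 was higher without overlap, by 2.07 (SE 0.057, 4.19-fold, limma, Benjamini-Hochberg adjusted p = 7.25e-15). Pcbp4 read 16.23, 16.12, 15.90, 16.05 and 16.05 on the 5 retina arrays and 14.80, 14.68, 14.87, 14.64 and 14.64 on the 5 cortex arrays. Pcbp4 was higher by 1.34 (SE 0.064, 2.54-fold, limma, Benjamini-Hochberg adjusted p = 9.9e-12), and by 0.97 without normalization, under 2-fold. The intronless Pcbp1 was at 15.37 ± 0.20 (SD, n = 5) for retina against 15.15 ± 0.10 (SD, n = 5) for cortex and was not called (0.21, SE 0.081), and its difference was negative without normalization. Against Pcbp1 within each array, Pcbp3 was higher in retina by 3.83, Pcbp2 by 1.85 and Pcbp4 by 1.13 (exact permutation p = 0.00794 and adjusted p = 0.0102 for each).

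Of the 15 hnRNP genes 1 was called (6.67%), against 29.0% of named genes and 38.4% of those not dim in both tissues. Without normalization 4 were called, and in both settings every call was lower in retina. Hnrnpab read 15.18, 15.10, 15.34, 15.19 and 15.24 on the 5 retina arrays and 16.65, 16.78, 16.63, 16.87 and 16.83 on the 5 cortex arrays. Hnrnpab, whose protein carries neuronal mRNAs and binds AU-rich stretches, was lower in retina, with a difference of -1.54 (SE 0.058, 2.92-fold, limma, Benjamini-Hochberg adjusted p = 4.99e-13). Next were Hnrnpr, a partner of SMN in axons, at -0.84 (SE 0.064) and Hnrnpul1 at -0.70 (SE 0.102), both without overlap and under 2-fold, but past it without normalization (-1.22 and -1.10), as was Hnrnpa3 (-0.58, and -1.07 without normalization). Hnrnpf, a binder of G-runs, had the highest value, 0.79 (SE 0.064), again without overlap. Hnrnpu and Hnrnpl were at -0.05 and 0.10 with limma adjusted p of 0.494 and 0.253. Values were negative in 11 of the 15 genes, and in 14 without normalization. That scaling also moved the median of all probes to -0.41, with 7621 probes called lower and 2474 higher. In the main fit 10 of the 15 passed the adjusted p with a negative value, beside 3584 of the 8614 named genes not dim in both tissues.

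**Figure D3:**
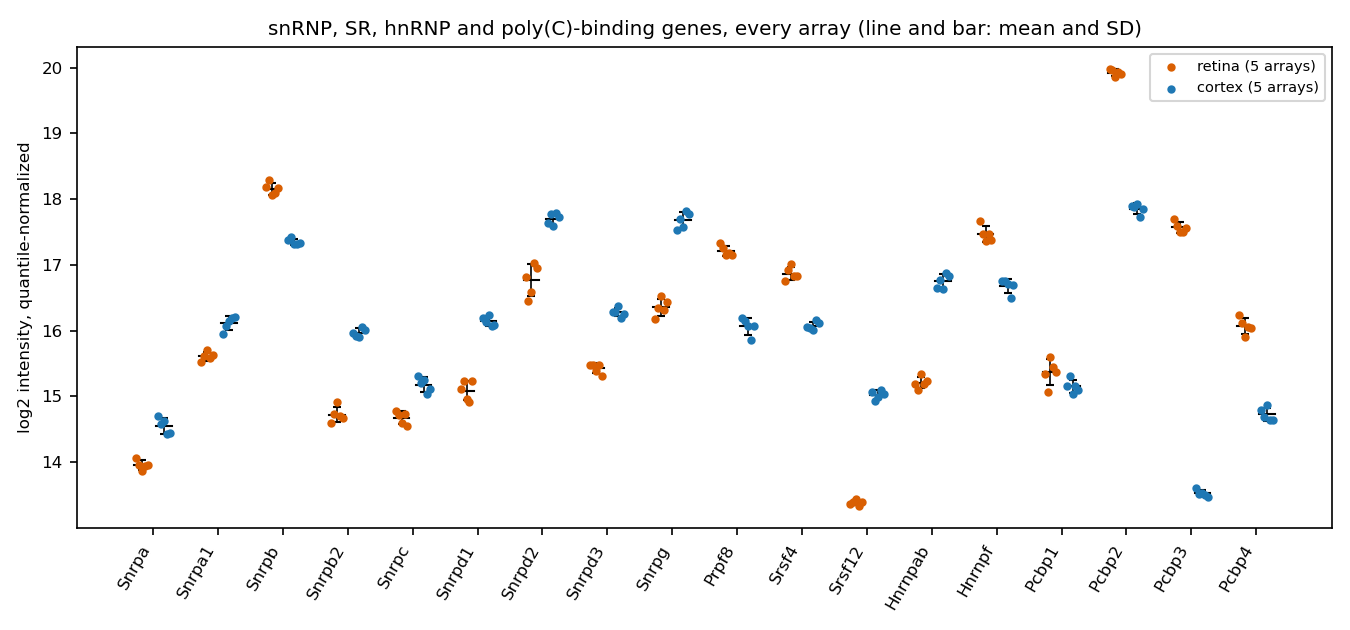
Quantile-normalized log2 intensity (vertical axis) of 18 snRNP, PRPF, SR, hnRNP and poly(C)-binding genes on every array, with orange points for retina, blue for cortex, and a black line and bar for the mean and SD of 5 arrays. Snrpb lies higher in retina while the other 8 Snrp genes lie lower, and Pcbp3 shows the widest gap, 3.89.

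The RBM genes share an RNA-recognition motif and otherwise act in varied steps, and most differed by under 2-fold. Their median absolute difference was 0.257, against 0.565 over named genes and 0.716 over those not dim in both tissues. Of 24, 12 passed the adjusted p at any size (50%), against 57.8% of named genes and 82.3% of those not dim in both tissues. Among the 24, 3 were dim in both tissues. Rbm7 read 15.67, 15.76, 15.55, 15.52 and 15.65 on the 5 retina arrays and 14.23, 14.18, 14.27, 14.10 and 14.29 on the 5 cortex arrays. Rbm7, a part of the nuclear exosome targeting complex, was higher in retina without overlap, by 1.42 (SE 0.055, 2.67-fold, limma, Benjamini-Hochberg adjusted p = 7.17e-13). Rbm11, a tissue-restricted splicing regulator, was lower (-1.41, SE 0.282) though both means were in the dim range, and an offset added ahead of the log brought it to -0.91, under 2-fold. Rbm38 read 9.98, 9.96, 10.96, 10.26 and 9.08 on the 5 retina arrays and 11.38, 10.60, 11.97, 11.22 and 11.26 on the 5 cortex arrays. Rbm38, a regulator of p21 mRNA, was called lower (-1.24, SE 0.305, limma adjusted p = 0.00254), the single called gene with overlapping arrays, and without retina replicate 5 its difference was -0.996, just under 2-fold. Rbm15b (-0.98, SE 0.086) fell just short of 2-fold and was called without retina replicate 1 or 2. Rbm25 was at -0.80 on its kept probe and -0.85 on a second one, both without overlap. The near-identical Rbm4 and Rbm4b, which probes may not separate, were at -0.02 and 0.11, and their ratio moved by 0.13 (exact permutation p = 0.0397, adjusted p = 0.0446), which did not pass without cortex array 2, 3, 4 or 5 or retina array 1, 2 or 3, each alone (adjusted p up to 0.0893).

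Related genes were compared within each array, where a scale factor common to both genes cancels, for 18 of 29 listed pairs. The pairs were listed with earlier results of these data known. The ratio of the pair differed between tissues in 16 of 18 (exact 2-sided permutation of the arrays, Benjamini-Hochberg over the 18 pairs). Of these, 14 had no overlap and reached an exact permutation p of 0.00794, the smallest that 5 against 5 arrays can give. As single genes, 75% of the named genes not dim in both tissues had no overlap. No share over unrelated pairs was computed, so these counts are not read as particular to related genes. The pairs that did not pass were Celf3 against Celf1 (-0.0080, exact permutation p = 0.929) and Msi2 against Msi1. Widest in retina's favour were Pcbp3 against Pcbp1 (3.83), Fxr2 against Fmr1 (2.02) and Mbnl2 against Mbnl1 (2.02). For Fxr2 against Fmr1, retina array 4 gave a log2 ratio of 2.98 and the other retina arrays 1.38 to 1.92. Fmr1 lay near the dim cutoff in retina. Among the 14 pairs in which neither gene was dim in either tissue, 13 passed, and the widest the other way were Celf6 against Celf1 (-1.53) and Celf2 against Celf1 (-1.36). In the other 4 pairs, of which 3 passed, the size was not shown to lie above background: Mbnl3 was dim in both tissues, and its ratio to Mbnl1 (-2.16) holds mostly the difference of Mbnl1 (1.70), Ptbp3 was dim in retina (-1.70 against Ptbp1), as were both Igf2bp genes, and Msi1 was dim in cortex.

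**Figure D4:**
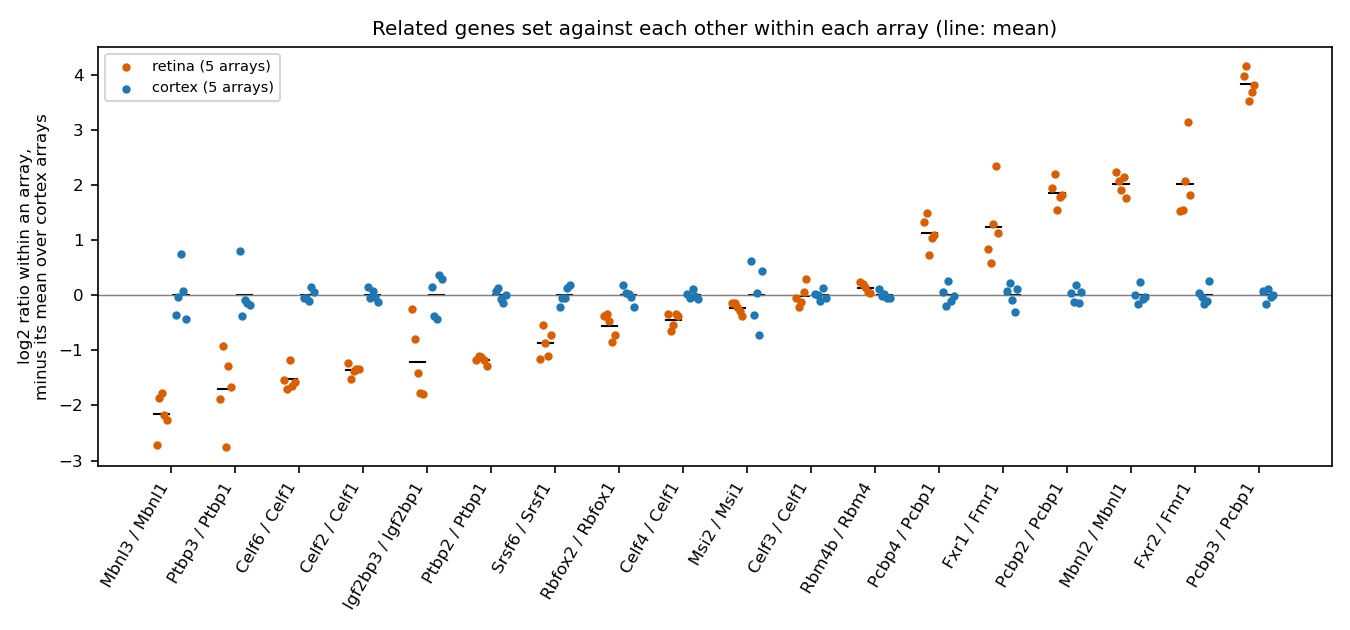
Log2 ratio of 2 related genes within each array, less its mean over the cortex arrays (vertical axis), for 18 pairs, with orange points for retina, blue for cortex and a line for the mean of 5 arrays. Orange and blue points are apart in 14 pairs, and the largest shift is 3.83 for Pcbp3 over Pcbp1.

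Other genes of RNA processing, from a list of 93 outside the named families, were counted the same way. Of 74 measured, 11 were higher in retina, 2 lower and 61 not called, with a median difference of 0.0017. The share called was 17.6%, against 29.0% of named genes and 38.4% of those not dim in both tissues. Of the 74, 5 were dim in both tissues. Esrp1, an epithelial splicing regulator, was higher by 4.42 (SE 0.314) from dim cortex values, and Rbpms2 and Rbpms, RNA-binding proteins known from ganglion cells, by 4.29 (SE 0.085) and 2.32 (SE 0.163), the latter also from dim cortex values. Ybx3, a cold-shock domain protein, was higher by 2.10 (SE 0.075). The 2 lower genes were Pabpc4, a cytoplasmic poly(A)-binding protein (-1.66, SE 0.053), and Syncrip, an hnRNP relative of Hnrnpr (-1.10, SE 0.065).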

How the data were processed

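Total RNA (1 µg per array) from 2 pools was labelled with digoxigenin and read on 5 arrays per tissue, per the labels' protocols. The authors deposited linear intensity values for 33012 probes. How these values were scanned, background-corrected or normalized is not given in the sources used here, nor are detection calls. Array medians, 836 to 987 in retina and 1255 to 1341 in cortex, spanned 0.68 log2 units, more than the tolerance of 0.1, so log2 intensities were quantile-normalized with limma 3.58.1 in R 4.3.3. Retina and cortex were compared by lmFit and eBayes with an intensity trend and no covariates, adjusted by Benjamini-Hochberg over all probes. Symbols came from the platform annotation (14411 probes with 1 symbol, 247 with several, 18354 not listed), and all 106 genes matched RefSeq by Entrez ID with 0 symbols changed. Gene pairs were tested by exact permutation (scipy 1.17.1). The genes, gene lists, marker lists, pairs and motifs were chosen with earlier results of these data known. Genes named were all regulators and transport genes, up to 4 called genes with the largest differences each way in every other role and in the other pathway list, called genes against their group's majority, the 12 largest differences each way, and genes with an array that stood apart. Any other gene was named after its values were seen. Alternatives were no normalization, median centring, an offset of 256 before the log, brighter probes only, no intensity trend, replicate number as a block, gene means over probes, no minimum difference and leaving out each array. The number of arrays limits the precision, and scripts were tested on simulated data.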

Additional observations from a re-analysis of the deposited data

Results flagged for a closer look

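Among the 212 sets of 5 repeat arrays (106 genes in 2 tissues), 14 (6.6%) held an array farther from the rest than Dixon's 95% critical value of 0.71 of the range, where chance gives about 1 in 20. The widest was Fmr1, the fragile X gene, at 9.85 on retina array 4 and 10.91 to 11.19 on the other retina arrays. Khdrbs2 was at 11.28 on retina array 3 and 11.72 to 11.89 on the others. Both kept their call on leaving out any single array. The widest gap of the other 12 was 0.22 log2 units, for U2af2. In retina they were Rbm25 at 14.50 on retina array 3 (others 14.67 to 14.72), Sf3b5 at 16.76 on retina array 3 (others 16.60 to 16.63), Srsf5 at 16.13 on retina array 2 (others 15.94 to 15.98) and U2af1 at 17.55 on retina array 2 (others 17.32 to 17.38). In cortex they were Celf1 at 13.33 on cortex array 5 (others 13.27 to 13.28), Fxr1 at 14.20 on cortex array 1 (others 14.28 to 14.30), Hnrnpf at 16.50 on cortex array 4 (others 16.69 to 16.75) and Prpf4b at 14.11 on cortex array 5 (others 13.99 to 13.999), and further Qk at 14.59 on cortex array 4 (others 14.73 to 14.79), Rbm26 at 12.02 on cortex array 3 (others at 12.03), Rbm6 at 14.27 on cortex array 4 (others 14.42 to 14.47) and U2af2 at 14.07 on cortex array 4 (others 14.29 to 14.37). Cortex array 4 held 4 of the 14, retina array 3 held 3, and retina arrays 1 and 5 and cortex array 2 held 0.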

How the results depend on the processing

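Of the 30 called genes 24 kept their call under every alternative setting of the fit in which they had a value, and 29 on leaving out any single array. Pcbp4 and Prpf8 lost it without normalization (0.97 and 0.75), Ptbp2 and Snrpd1 with median centring (-0.93 and -0.89), Rbm11 with the offset (-0.91) and Rbm38 without retina replicate 5 (-0.996). No called gene changed direction. Of the 76 genes not called, 8 were called without normalization, and Rbm15b also without retina replicate 1 or 2. Without normalization the probes called were 2474 higher and 7621 lower in place of 3987 and 4392, so 24.5% of called probes were higher in place of 47.6%, and of called genes 22.2% in place of 33.3%. With no minimum difference 30 genes were higher and 53 lower, which adds 53 of the 76 genes not called. Mbnl3, Rbm3 and Rbm11 had no value among brighter probes. Leaving out single arrays gave 10 genes higher each time and 19 to 21 lower. Leaving out the 5 genes dim in both tissues, an alternative chosen after seeing the data, gave 9 and 19. Same-numbered arrays did not deviate together over probes (correlations of -0.020 to 0.029, after quantile normalization and centring by tissue). Shifts of a whole array had been removed by then, so this cannot show whether same-numbered arrays were handled together. The replicate block changed no gene's call, with 10 higher and 20 lower. For the gene pairs the replicate block gave 0 of 18 in place of 16, since 5 pairs of arrays cannot give a p under 0.0625, and leaving out single arrays gave 14 to 15. Dim signal limits what the 10 genes named as dim can show. Elavl2 and Fmr1 lay near the retina cutoff of 10.77 (retina means 10.80 and 10.79), which limits the sizes of their differences too.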

Other observations

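Some related genes not in the listed pairs were set against each other after their values had been seen, and are given without a test. The listed pairs had themselves been chosen with earlier results of these data known. Within arrays, Elavl4 over Elavl2 was higher in retina by 1.50 and Khdrbs3 over Khdrbs2 by 1.44, while Snrpd1 over Snrpb, which share the Sm ring, was lower, at -1.86. In each of these the 5 retina ratios did not overlap the 5 cortex ratios. Repeat arrays of retina spread more than those of cortex for 76 of the 106 genes (71.7%), against 63.7% of named genes, with a median SD of 0.111 in retina and 0.077 in cortex. The spread was smallest for Rbm26 in cortex (SD 0.0052) and largest for the dim Rbm3 in retina (SD 0.938). For the 6 genes with a second probe (Hnrnpa3, Rbm25, Sf3b4, Snrpd2, Srsf3 and Srsf10) both probes gave a negative difference and neither was called.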
